A study of Mus musculus with 6 samples.

Results

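The 8 troponin genes of the mouse were examined in C2C12 cells: Tnnt1, Tnnt2 and Tnnt3, Tnni1, Tnni2 and Tnni3, and Tnnc1 and Tnnc2. They were chosen by name as a family, not by any measured value, and are 8 of the 25308 genes with a count in at least 1 library. C2C12 is an established line of mouse myoblasts, the mononucleated precursors of muscle fibres, and it fuses into contractile myotubes when serum is lowered. The study sequenced polyadenylated RNA from 6 libraries of this line, with 2 libraries in each of 3 groups that the submitters call biological replicates. Myotubes, the fused cells, and reserve cells, the mononucleated cells that stay unfused in the same dishes, were parted by mild trypsinization after 7 days in horse serum at low concentration, as the series record states, while the methods of the study give a shorter time. Myoblasts were taken near confluence, before differentiation. No group carried a drug, a transgene or a mutation made for the comparison, and all 3 came from the same line. The methods of the study describe a myotube fraction with little reserve cell material, and give no such statement for the reserve cell fraction.

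Troponin is the calcium switch of the thin filament. Troponin C binds calcium, troponin I holds the actin and myosin interaction off until calcium is bound, and troponin T ties the complex to tropomyosin. Each subunit has paralogs named after the muscle in which they prevail. Tnnt1 and Tnni1 encode the slow skeletal forms of troponin T and troponin I, Tnnt3, Tnni2 and Tnnc2 encode the fast skeletal forms of the 3 subunits, Tnnt2 and Tnni3 encode the cardiac forms of troponin T and troponin I, and Tnnc1 encodes the troponin C shared by slow skeletal and cardiac muscle. Developing skeletal muscle is known to express the cardiac troponin T gene, and the troponin T genes are known for alternative exons that change during muscle development.

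Of the 8 genes, 6 lie as neighbouring pairs of a troponin I and a troponin T gene (mm10). Tnni3 (chr7:4518305-4524229, minus strand) lies 1922 bases from Tnnt1 (chr7:4504570-4516382, minus strand), with no gene between them. Tnni1 (chr1:135779434-135810989, plus strand) and Tnnt2 (chr1:135836354-135852260, plus strand) are 25364 bases apart, with Lad1 between them. Tnni2 (chr7:142441808-142444410, plus strand) and Tnnt3 (chr7:142498836-142516009, plus strand) are 54425 bases apart, with Lsp1 between them. The troponin C genes stand alone, Tnnc1 at chr14:31208312-31211729 on the plus strand and Tnnc2 at chr2:164777161-164779967 on the minus strand.

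Promoter sequence is shown for the members because 7 of the 8 genes moved together, as described below. Windows were taken from RefSeq (GRCm38.p6), which held 8 windows for 6 of the 8 members, all but Tnnt3 and Tnni2, and the 250 bases before each start site were searched. Each line below gives the longest run of bases near the start site that lies outside annotated exons, 5′ to 3′ on the strand of the gene. The search itself did not leave out exons. Capitals mark the E-box (CANNTG), the site read by myogenic basic helix-loop-helix factors, and the MCAT element (CATTCC, on either strand), the site read by TEAD factors.
Tnnt1, chr7:4516005-4516175, minus strand: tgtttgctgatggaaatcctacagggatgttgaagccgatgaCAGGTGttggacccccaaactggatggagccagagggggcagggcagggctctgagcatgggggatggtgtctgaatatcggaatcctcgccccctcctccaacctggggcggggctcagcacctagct
Tnnt2, chr1:135836134-135836333, plus strand: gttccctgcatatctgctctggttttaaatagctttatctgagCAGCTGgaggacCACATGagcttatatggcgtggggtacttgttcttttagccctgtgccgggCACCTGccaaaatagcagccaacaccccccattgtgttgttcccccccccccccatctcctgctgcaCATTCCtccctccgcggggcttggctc
Tnni1, chr1:135799221-135799401, plus strand: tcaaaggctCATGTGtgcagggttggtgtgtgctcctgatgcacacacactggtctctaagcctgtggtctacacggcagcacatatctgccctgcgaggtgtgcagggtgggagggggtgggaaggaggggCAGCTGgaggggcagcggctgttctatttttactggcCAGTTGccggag
Tnni3, chr7:4522529-4522694, minus strand: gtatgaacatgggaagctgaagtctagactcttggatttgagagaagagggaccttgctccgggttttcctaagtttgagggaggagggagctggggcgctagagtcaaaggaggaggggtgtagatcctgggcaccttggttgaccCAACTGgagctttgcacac
Tnnc1, chr14:31208112-31208311, plus strand: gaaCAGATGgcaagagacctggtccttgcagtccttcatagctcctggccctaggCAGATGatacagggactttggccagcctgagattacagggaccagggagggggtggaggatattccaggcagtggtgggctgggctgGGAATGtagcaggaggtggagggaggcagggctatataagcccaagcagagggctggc
Tnnc2, chr2:164779742-164779867, minus strand: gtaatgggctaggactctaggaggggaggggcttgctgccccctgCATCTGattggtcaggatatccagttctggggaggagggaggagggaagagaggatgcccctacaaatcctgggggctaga
An E-box was found in 8 of the 8 member windows, against 66.2% of all 32851 windows. Tnnt2 (first of its 2 windows) and Tnni1 (first of its 2 windows) each held 4 E-boxes, and Tnni3 held 1, at position -19. The 2 windows of Tnni1 overlap. The second Tnnt2 window had 1 E-box and is not printed, since the bases nearest its start site lie in annotated exons. MCAT was found in the first Tnnt2 window, at position -27, and in the Tnnc1 window, at position -58, that is in 2 of 8 windows against 12.6% of all windows. The consensus of MEF2 was found in 0 of the 8 windows (2.92% of all windows) and that of the CArG box in 0 of 8 (1.47% of all windows). These matches describe letters in the windows only.

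The libraries held 15658875 to 20055078 assigned counts each, and levels are given as counts per library scaled to a common total (CPM). Replicates differed by more than counting noise in every group (chi-square per degree of freedom of 6.16 to 7.77), and no library was identical to another. Skeletal muscle identity genes (5 of 5 detected: Des, Myod1, Myog, Ckm, Acta1) summed to 16212 to 16281 CPM in myotubes, 5410 to 5509 in reserve cells and 1719 to 1783 in myoblasts. Fibroblast markers (7 genes) summed to 783 to 786 CPM in myotubes, 4050 to 4181 in reserve cells and 3445 to 3451 in myoblasts, with Lum and Thy1 under 1 CPM in every library. Smooth muscle markers (6 genes) summed to 1364 to 1421 CPM in myotubes, 2716 to 2780 in reserve cells and 871 to 891 in myoblasts, nearly all of it from Acta2, Tagln and Smtn, with Myh11 under 1 CPM in every library. The leukocyte markers Ptprc and Adgre1, the endothelial marker Tie1 and the neural markers Rbfox3, Snap25, Syt1 and Sox10 were at 0 CPM in all 6 libraries. Other members of these lists were detected: leukocyte markers (6 genes) summed to 2.33 to 2.77 CPM in myotubes, 2.12 to 2.22 in reserve cells and 3.33 to 3.92 in myoblasts, mostly from Cd68 and Csf1r, and endothelial markers (5 genes) to at most 1.21 CPM in any library. Tubb3, of the neural list, had 17.0 and 15.1 CPM in myotubes, 28.9 and 30.1 in reserve cells and 166 and 157 in myoblasts. Adipocyte markers (6 genes) summed to 11.1 to 15.8 CPM in myotubes, 41.3 to 49.1 in reserve cells and 51.9 to 52.2 in myoblasts, mostly from Cebpa and Pparg, with Adipoq, Plin1 and Cidec at 0. Osteoblast and chondrocyte markers (7 genes) summed to 77.0 to 83.3 CPM in myotubes, 134 to 149 in reserve cells and 142 to 147 in myoblasts, nearly all from Runx2 and Sox9, with Ibsp and Acan at 0. In the mitochondrial genes the share of counts was 5.30% to 5.37% in myotubes, 2.36% in both reserve cell libraries and 1.89% to 1.90% in myoblasts. Whether these differences bear on the troponin values was not tested.

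The troponin T genes were abundant in myotubes, intermediate in reserve cells and low in myoblasts. Tnnt1, the slow form, had 1484 and 1407 CPM in myotubes, 392 and 387 in reserve cells and 23.3 and 20.1 in myoblasts. Tnnt2, the cardiac form, had 2555 and 2496 CPM in myotubes, 745 and 740 in reserve cells and 55.8 and 55.4 in myoblasts. Tnnt3, the fast form, had 3519 and 3421 CPM in myotubes, 704 and 713 in reserve cells and 12.3 and 11.3 in myoblasts. The libraries of the 3 groups did not overlap for any of these genes, where every myotube library was above every myoblast library for 41.2% of all genes tested, every reserve cell library above every myoblast library for 38.4%, and every myotube library above every reserve cell library for 38.5%. In these bulk libraries, fewer cells that express a gene and less of its RNA per cell cannot be told apart.

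Among the troponin I genes the slow and fast forms followed the same order, and the cardiac form stayed near the floor. Tnni1, the slow form, had 2675 and 2593 CPM in myotubes, 605 and 658 in reserve cells and 13.7 and 15.4 in myoblasts. Tnni2, the fast form, had 1230 and 1360 CPM in myotubes, 281 and 261 in reserve cells and 6.24 and 6.36 in myoblasts. Neither gene had overlapping groups. Tnni3, the adult cardiac form, had 4.62 and 6.46 CPM in myotubes, 1.31 and 1.24 in reserve cells and 1.05 and 1.25 in myoblasts, which rest on 65 and 111 estimated counts in myotubes, 26 and 24 in reserve cells and 18 and 27 in myoblasts. The reserve cell and myoblast libraries overlapped for Tnni3, and both lay below the myotube libraries. Dnaaf3, a gene on the same strand that overlaps Tnni3, moved the other way, with 0.497 and 0.523 CPM in myotubes, 1.91 and 1.5 in reserve cells and 4.78 and 5.67 in myoblasts.

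The troponin C genes rose together. Tnnc1, the slow skeletal and cardiac form, had 3250 and 2973 CPM in myotubes, 813 and 800 in reserve cells and 13.8 and 10.7 in myoblasts. Tnnc2, the fast form, had 4174 and 3753 CPM in myotubes, 700 and 654 in reserve cells and 13.0 and 10.6 in myoblasts. The groups did not overlap for either gene. Both overlap a gene on the opposite strand, and the sources used here do not say whether the counting used strand. Nisch, which overlaps Tnnc1, had 589 and 609 CPM in myotubes, 551 and 572 in reserve cells and 494 and 481 in myoblasts. Ube2c, which overlaps Tnnc2, had 91.5 and 166 CPM in myotubes, 82.9 and 43.8 in reserve cells and 126 and 136 in myoblasts. Nisch had the same order of groups as Tnnc1, without overlap, over a much narrower range, and Ube2c did not follow the order of Tnnc2. Prr33, annotated by GENCODE as a noncoding RNA gene opposite Tnnt3, had 15.1 and 12.7 CPM in myotubes, 5.49 and 8.33 in reserve cells and 3.03 and 2.63 in myoblasts.

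**Figure D1:**
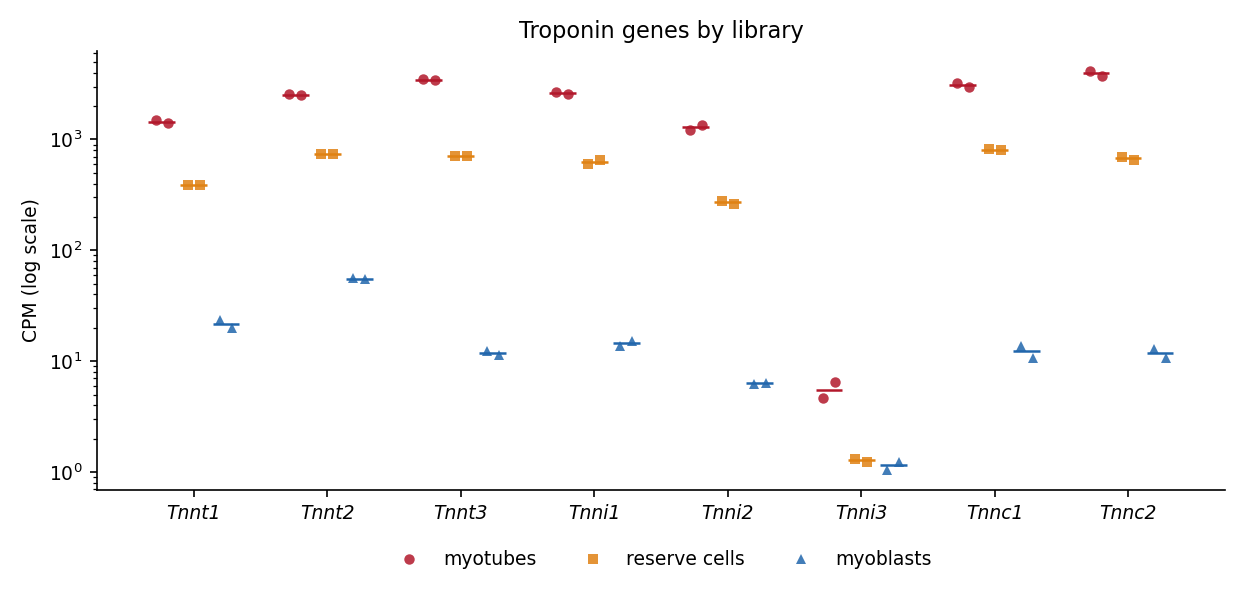
Level of each troponin gene in each library, in CPM on a log axis, with 2 points a group and a bar at the group mean for myotubes (circles), reserve cells (squares) and myoblasts (triangles). Groups are apart for 7 genes, and for Tnni3 the reserve cell and myoblast libraries, at 1.05 to 1.31 CPM, overlap.

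Myotubes were first set against myoblasts, the cells they form from. All 8 members were higher in myotubes at an adjusted p under 0.05 (edgeR quasi-likelihood test with Benjamini-Hochberg adjustment over 15467 genes), where 32.7% of all genes tested were called higher, and all 8 were higher by at least 2-fold, against 16.6% of all genes. None was lower (32.9% of all genes were). The fast genes had the largest fold changes in troponin T and troponin C, with log2 fold changes of 8.40 for Tnnc2 (SE 0.13, adjusted p = 9.4e-08) and 8.20 for Tnnt3 (SE 0.05, adjusted p = 4.9e-18). The remaining fast gene, Tnni2, had 7.68 (SE 0.08, adjusted p = 5.2e-16) and its slow counterpart Tnni1 7.50 (SE 0.07, adjusted p = 1.1e-15), with 95% intervals of 7.51 to 7.85 and 7.34 to 7.65 that overlap. Tnnc1 rose by 8.0 (SE 0.14, adjusted p = 4.8e-07), and its 95% interval of 7.63 to 8.37 overlaps that of Tnnc2, 8.07 to 8.73. Tnnt1 rose by 6.06 (SE 0.07, adjusted p = 1.6e-14) and Tnnt2 by 5.51 (SE 0.04, adjusted p = 1.1e-17). Tnni3 rose least, by 2.26 (SE 0.39, adjusted p = 1.8e-04), from the lowest counts of the family. On the linear scale the changes ran from 4.80-fold for Tnni3 and 45.4-fold for Tnnt2 to 338-fold for Tnnc2. The median over the 8 genes was a log2 fold change of 7.59, beside 0.0045 over all genes tested.

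Reserve cells, which did not fuse, were likewise set against myoblasts. Here 7 of the 8 members were higher (24.7% of all genes were called higher), again each by at least 2-fold (10.5% of all genes), and none was lower (22.4% of all genes were). On the log2 scale Tnnc1 was higher by 6.05 (SE 0.13, adjusted p = 2.6e-06), Tnnt3 by 5.91 (SE 0.05, adjusted p = 1.2e-16) and Tnnc2 by 5.85 (SE 0.12, adjusted p = 7.8e-07). Tnni1 and Tnni2 had 5.44 (SE 0.06) and 5.42 (SE 0.07), with edgeR adjusted p of 2.3e-14 and 1.7e-14. Tnnt1 rose by 4.17 (SE 0.07, adjusted p = 5.7e-13) and Tnnt2 by 3.74 (SE 0.04, adjusted p = 5.7e-16), the lowest of the 7 genes called. Tnni3 was the exception, with a log2 fold change of 0.15 (edgeR 95% interval -0.72 to 1.02, adjusted p = 0.79). The members' median was 5.43, beside 0.015 over all genes. Both comparisons share the myoblast libraries.

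Myotubes were then set against reserve cells of the same dishes. All 8 members were higher in myotubes (27.6% of all genes were called higher), all by at least 2-fold (9.41% of all genes), and none was lower (28.9% of all genes were). On the log2 scale Tnnc2 was higher by 2.55 (SE 0.09, adjusted p = 7.0e-06), Tnnt3 by 2.29 (SE 0.04, adjusted p = 1.6e-13) and Tnni2 by 2.26 (SE 0.06, adjusted p = 6.4e-12), so the fast gene had the largest value in each subunit. The difference between paralogs was not tested. Of the slow and cardiac genes, Tnni3 had 2.11 (SE 0.39, adjusted p = 4.0e-04), Tnni1 2.06 (SE 0.05, adjusted p = 1.9e-11), Tnnc1 1.95 (SE 0.10, adjusted p = 6.1e-05), Tnnt1 1.89 (SE 0.06, adjusted p = 1.3e-10) and Tnnt2 1.77 (SE 0.04, adjusted p = 5.4e-13). The members' median was 2.09, beside -0.0067 over all genes tested. Reserve cells held 17.1% (Tnnc2) to 29.4% (Tnnt2) of the myotube level, with a median of 23.5% over the 8 genes. Each of these differences was larger than the spread between replicates. The p-values rest only on the spread between replicate libraries, 2 a group, estimated over all 3 groups and shared in part across genes.

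**Figure D2:**
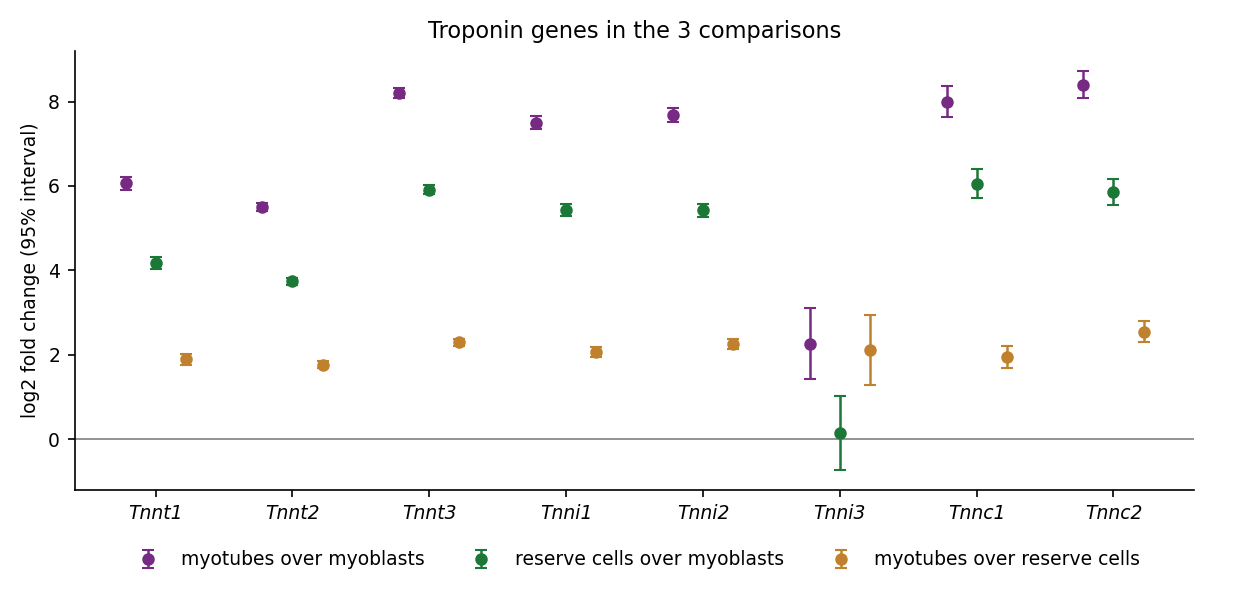
Log2 fold change of each troponin gene (points) with its 95% interval (bars) for myotubes over myoblasts, reserve cells over myoblasts and myotubes over reserve cells. The interval crosses 0 for Tnni3 in reserve cells over myoblasts only, and the myotube over reserve cell values lie between 1.77 and 2.55 for all 8 genes.

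Counts of different genes can be set side by side only per length, so the makeup of the complex was described in CPM per kilobase (kb) of transcript. In myotubes the order was Tnnc2 (5668 ± 426, SD, n = 2), Tnnc1 (4332 ± 275), Tnnt3 (3462 ± 99.1), Tnni1 (2453 ± 53.6), Tnnt2 (2315 ± 49.6), Tnni2 (1757 ± 136), Tnnt1 (1484 ± 44.0) and Tnni3 (6.72 ± 1.68), and no neighbours in this order overlapped in their 2 libraries. In reserve cells Tnnc1 led at 1121 ± 12.3 CPM per kb, ahead of Tnnc2 at 969 ± 44.7, Tnnt3 at 707 ± 9.77 and Tnnt2 at 684 ± 2.10, and the order ended with Tnni1, Tnnt1, Tnni2 and Tnni3, again without overlap between neighbours. In myoblasts Tnnt2 led at 50.6 ± 0.607 CPM per kb and Tnnt1 followed at 24.9 ± 2.54. Tnnc1 (17.3 ± 3.16) and Tnnc2 (16.9 ± 2.31) overlapped in myoblasts and were the only neighbours that did so in any group. Over the 8 genes together, 1.60% to 1.70% of all counts were troponin in myotubes, 0.434% to 0.438% in reserve cells and 0.0142% to 0.0151% in myoblasts.

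The share of each paralog in its subunit differed between groups most in troponin T. Tnnt3 made up 47.7% and 47.6% of troponin T counts per kb in myotubes, 39% and 39.5% in reserve cells and 14.0% and 13.5% in myoblasts. Tnnt2 made up 31.8% and 32.0% in myotubes, 38.0% and 37.9% in reserve cells and 56.1% and 59.5% in myoblasts. Tnnt1 made up 20.5% and 20.4% in myotubes, 23.0% and 22.6% in reserve cells and 29.9% and 27.0% in myoblasts. The myoblast pool was thus mostly cardiac by gene name, and the myotube pool had the fast gene as its largest component. In troponin C, Tnnc2 took 56.9% and 56.5% in myotubes, 47.0% and 45.7% in reserve cells and 48.6% and 50.2% in myoblasts, with Tnnc1 as the remainder. In troponin I, Tnni1 took 59.9% and 56.5% in myotubes, 59.6% and 62.9% in reserve cells and 56.5% and 57.7% in myoblasts, with overlap between myotubes and each other group. Tnni3 took 0.133% and 0.185% of troponin I in myotubes, 0.179% and 0.158% in reserve cells and 6.35% and 7.59% in myoblasts. Over all 3 subunits the fast genes held 50.6% and 50.8% of counts per kb in myotubes, 42.7% and 41.6% in reserve cells and 26.2% and 25.1% in myoblasts. With 2 libraries against 2, an exact two-sided permutation test cannot go below p = 0.33, so the shares are given as values.

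**Figure D3:**
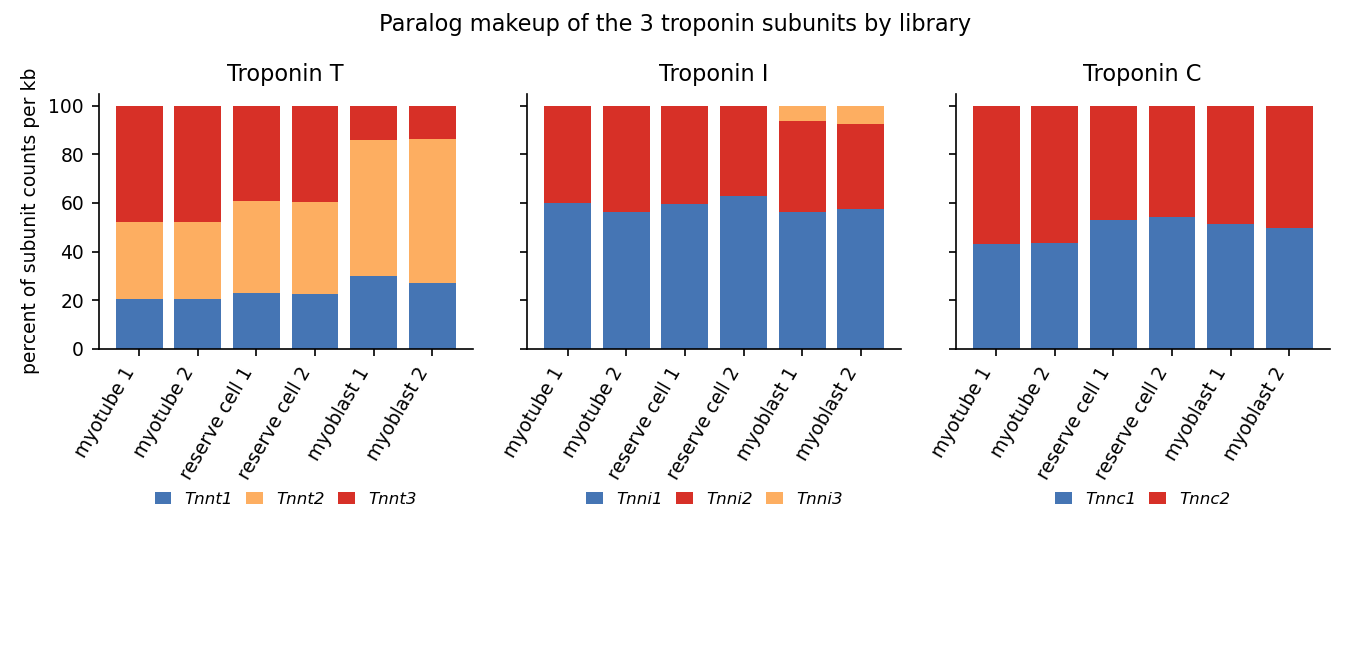
Share of each paralog in the counts per kb of its subunit, in percent, as stacked bars from 0 to 100 for each library, with troponin T, troponin I and troponin C in separate panels. The Tnnt3 segment is at 47.6% to 47.7% in myotubes, 39% to 39.5% in reserve cells and 13.5% to 14.0% in myoblasts, and the Tnni1 and Tnni2 segments are of like size in all 3 groups.

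The annotation lists 85 transcripts of the 8 genes, and 63 of them passed the filter on low counts. Of these, 52 were higher in myotubes than in myoblasts (10.1% of all 35501 transcripts tested were called higher), 33 were higher in reserve cells than in myoblasts (4.60%) and 20 were higher in myotubes than in reserve cells (5.01%). None was lower in any of the 3 comparisons at an adjusted p under 0.05 (edgeR), where 9.67%, 2.98% and 5.90% of all transcripts tested were. The filter keeps a transcript that is high in 1 group, so these counts are a description. They moved with the settings and the libraries used. The number called between myotubes and myoblasts, 52, became 37 with a filter of 10 CPM in 2 libraries, 43 with replicate number in the fit and 56 with DESeq2. Without myotube replicate 1, myotube replicate 2, reserve cell replicate 1 or reserve cell replicate 2 the count of 20 became 11, 10, 7 or 7, and the count of 33 became 19, 20, 14 or 13. A single transcript is an estimate, because its reads are divided among overlapping transcripts, and replicates of 1 group differed far more for transcripts than for genes.

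A test of transcript usage asked whether the makeup of a gene by transcript differed apart from its level, in the 7 members with at least 2 tested transcripts (all but Tnni3). The edgeR gene-level test called 5 of 7 between myotubes and myoblasts (11.0% of all genes with such a test), 3 of 7 between reserve cells and myoblasts (4.80%) and 2 of 7 between myotubes and reserve cells (5.17%). Tnnt3 was called in all 3 comparisons, with adjusted p of 2.4e-06 between myotubes and myoblasts, 1.7e-05 between reserve cells and myoblasts and 0.039 between myotubes and reserve cells. The last of these was lost without myotube replicate 1 (edgeR adjusted p = 0.62), without myotube replicate 2 (0.49), without reserve cell replicate 1 (0.086) or with a filter of 10 CPM in 2 libraries (0.099). Tnni1 was called between myotubes and myoblasts (edgeR adjusted p = 1.9e-05) and between myotubes and reserve cells (7.3e-08), and missed the threshold between reserve cells and myoblasts (0.058). It was called there without myoblast replicate 2 (edgeR adjusted p = 0.016), with no filter (1.6e-04) and with the filter of 10 CPM (0.028). Tnnc1 was called against myoblasts in myotubes (edgeR adjusted p = 0.0045) and in reserve cells (0.0070), and these calls were lost without either myotube library (0.069 and 0.071) or either reserve cell library (0.13 and 0.11) of the comparison. Tnni2 was called against myoblasts in myotubes (edgeR adjusted p = 0.0080) and reserve cells (0.0089), and lost both calls without any 1 of the myoblast or reserve cell libraries, with adjusted p of 0.053 to 0.16, and with no filter (0.18 and 0.23). Tnnt1 was called only between myotubes and myoblasts (edgeR adjusted p = 0.018), and lost that call without any 1 of the myotube or reserve cell libraries (0.0998 to 0.28) or in separate fits of 2 groups (0.0987).

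Tnnt1 usage was called between reserve cells and myoblasts once myoblast replicate 1 or myoblast replicate 2 was left out (edgeR adjusted p = 0.0016 and 1.2e-05), and between myotubes and reserve cells once either was left out (0.020 for each) or in separate fits (0.0065), against 0.28 and 0.74 with all libraries. Tnnt2 usage was called in myotubes and in reserve cells against myoblasts once myoblast replicate 2 was left out (edgeR adjusted p = 0.0013 and 0.0012), against 0.19 and 0.27 with all libraries. In the myoblast libraries these 2 genes rested on 400 to 1202 estimated counts, divided over 13 and 15 transcripts.

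In Tnni1 the call rested on the transcript Tnni1-206, which had 3843 and 6001 estimated counts in myotubes and 0 in all 4 reserve cell and myoblast libraries. That is at least 4126-fold higher than in reserve cells and at least 3996-fold higher than in myoblasts, against a floor of 3 counts over the group. It made up 10.2% and 13.5% of Tnni1 counts in myotubes. Tnni1-206 starts within the first exon of Tnni1-207 and lacks the 48-base noncoding exon that follows (chr1:135799973-135800020). Tnni1-207, the main transcript, held 60.7% and 59.97% of Tnni1 counts in myotubes, 59.3% and 63.3% in reserve cells and 85.5% and 72.1% in myoblasts. Tnni1-205, which starts further downstream, held 22.9% and 20.9% in myotubes, 32.1% and 31.4% in reserve cells and 10.2% and 23.4% in myoblasts. These transcripts differ at their 5′ ends. The share of spanning counts that hold the 48-base exon was 65.2% and 64.1% in myotubes, 65.3% and 67.1% in reserve cells and 89.4% and 75.5% in myoblasts. The transcripts counted as not holding it were Tnni1-205 and Tnni1-206, and 1 of the 2 overlaps it with another boundary. With Tnni1-206 at 0 in reserve cells and myoblasts, the remainder there is Tnni1-205. The share is therefore not a measure of exon skipping alone.

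Tnni2 also differed at its first exon. Tnni2-201, which begins at an upstream first exon, held 65.4% and 83.6% of Tnni2 counts in myotubes, 80.4% and 72.3% in reserve cells and 31.8% and 34.1% in myoblasts. Tnni2-206, which begins at a first exon nearer the coding sequence, held 30.5% and 14.4% in myotubes, 17.8% and 24.9% in reserve cells and 67.3% and 63.8% in myoblasts. Myotubes and reserve cells overlapped for both transcripts and stood apart from myoblasts. The troponin C genes had a single main transcript in every library. Tnnc2-201 took at least 99.6% of Tnnc2 counts in each library, and Tnnc1-202 took 97.5% and 97.9% of Tnnc1 counts in myotubes, 98.0% and 97.8% in reserve cells and 89.0% and 85.8% in myoblasts.

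Within Tnnt3 the named transcripts divided the gene differently by group. Tnnt3-202 held 36.9% and 34.2% of Tnnt3 counts in myotubes, 26.3% and 24.5% in reserve cells and 16.7% and 20.3% in myoblasts. Tnnt3-216 held 27.8% and 26.4% in myotubes, 23.4% and 19.5% in reserve cells and 1.90% and 5.28% in myoblasts. Tnnt3-215 held 0.483% and 0.733% in myotubes, 3.93% and 2.88% in reserve cells and 51.4% and 21.5% in myoblasts. These 3 transcripts ran in order from myotubes through reserve cells to myoblasts, the first pair downward and Tnnt3-215 upward. Tnnt3-212 broke that order, with 2.20% and 5.01% in myotubes, 14.2% and 20.5% in reserve cells and 0 in both myoblast libraries, where its 1986 and 2817 estimated counts in reserve cells are at least 1551-fold higher than in myoblasts.

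In Tnnt1 the transcript Tnnt1-201 held 48.4% and 51.4% of counts in myotubes, 39.9% and 35.2% in reserve cells and 3% and 16.1% in myoblasts. Tnnt1-206 held 12.2% and 14.8% in myotubes, 19.0% and 20.6% in reserve cells and 30% and 49.4% in myoblasts. In Tnnt2 the transcript Tnnt2-211 held 53.1% and 53.9% in myotubes, 41.9% and 36.3% in reserve cells and 13.7% and 9.32% in myoblasts. The groups did not overlap for these 3 transcripts. The myoblast estimates of Tnnt2 were unsettled, with Tnnt2-205 at 357 and 37 counts and Tnnt2-207 at 0 and 496 counts in the 2 myoblast libraries.

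The alternative exons of the troponin T genes were then read from the same estimates, as the share of counts of all transcripts spanning an exon that hold it. An exon with another boundary counts as not held. Their sequences are shown because the shares below turn on them. They come from the GENCODE M21 transcripts (GRCm38), 5′ to 3′ on the strand of the gene, and are coding. In the pair of 41-base exons of Tnnt3, which replace each other near the end of the coding sequence, capitals mark the 23 of 41 positions at which they differ.
Tnnt3, upstream exon of the pair, chr7:142513665-142513705, plus strand: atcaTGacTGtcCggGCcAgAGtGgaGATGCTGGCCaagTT
Tnnt3, downstream exon of the pair, chr7:142514326-142514366, plus strand: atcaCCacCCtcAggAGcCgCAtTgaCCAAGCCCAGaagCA
Tnnt3, 39-base exon, chr7:142507750-142507788, plus strand: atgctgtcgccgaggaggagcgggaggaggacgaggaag
Tnnt2, 30-base exon, chr1:135843785-135843814, plus strand: aggaagactggagtgaagaagaggaggacg
Tnnt1, 33-base exon, chr7:4513581-4513613, minus strand: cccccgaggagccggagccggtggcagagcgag

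The downstream exon of the Tnnt3 pair prevailed in every library, at 92.1% and 92.96% of spanning counts in myotubes, 98.3% and 98.1% in reserve cells and 99.5% and 99.6% in myoblasts. The upstream exon was held by 4.78% and 4.15% in myotubes, 1.64% and 0.776% in reserve cells and 0% in both myoblast libraries. The 3 groups did not overlap for the upstream exon. The myoblast value of 0 rests on few counts, since the whole gene had 210.0 and 246 estimated counts there. The 39-base exon of Tnnt3 was held by 50.7% and 54.9% in myotubes, 60.5% and 64.2% in reserve cells and 74.0% and 62.2% in myoblasts, with reserve cells and myoblasts overlapping and myotubes below both. A 15-base exon at the 5′ end of the coding sequence (chr7:142504250-142504264) was held by 82.1% and 85.9% in myotubes, 85.2% and 84.0% in reserve cells and 25.8% and 57.1% in myoblasts. A 19-base exon (chr7:142507845-142507863) was highest in reserve cells, at 22.8% and 29.0%, against 4.86% and 11.8% in myotubes and 0.481% and 0% in myoblasts. Another 19-base exon (chr7:142508335-142508353) was lowest there, at 77.1% and 70.9%, against 95.1% and 86.9% in myotubes and 99.5% and 99.6% in myoblasts.

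The 33-base exon of Tnnt1 was held by 85.1% and 82.5% in myotubes, 76.5% and 74.9% in reserve cells and 53.9% and 39.9% in myoblasts, without overlap between groups. The 30-base exon of Tnnt2 was held by 14.6% and 16.1% in myotubes, 23.2% and 19.3% in reserve cells and 5.84% and 57.2% in myoblasts. Myotubes and reserve cells did not overlap for the 30-base exon, and the 2 myoblast libraries were too far apart to place it. A 34-base form with the same end (chr1:135843781-135843814), counted as not holding it, had 37.9% and 3.13% in myoblasts. That form had 0.366% and 0.00235% in myotubes and 0% and 0.0425% in reserve cells. The gap between the myoblast libraries is thus not one of exon skipping alone. A 9-base exon near the 3′ end of Tnnt2 (chr1:135850379-135850387) was held by 85.2% and 84.5% in myotubes, 76.8% and 80.6% in reserve cells and 60.9% and 38.97% in myoblasts. These exon shares were chosen from a larger number after transcript values had been seen and carry no test. How often groups stand apart over all exons was not counted.

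**Figure D4:**
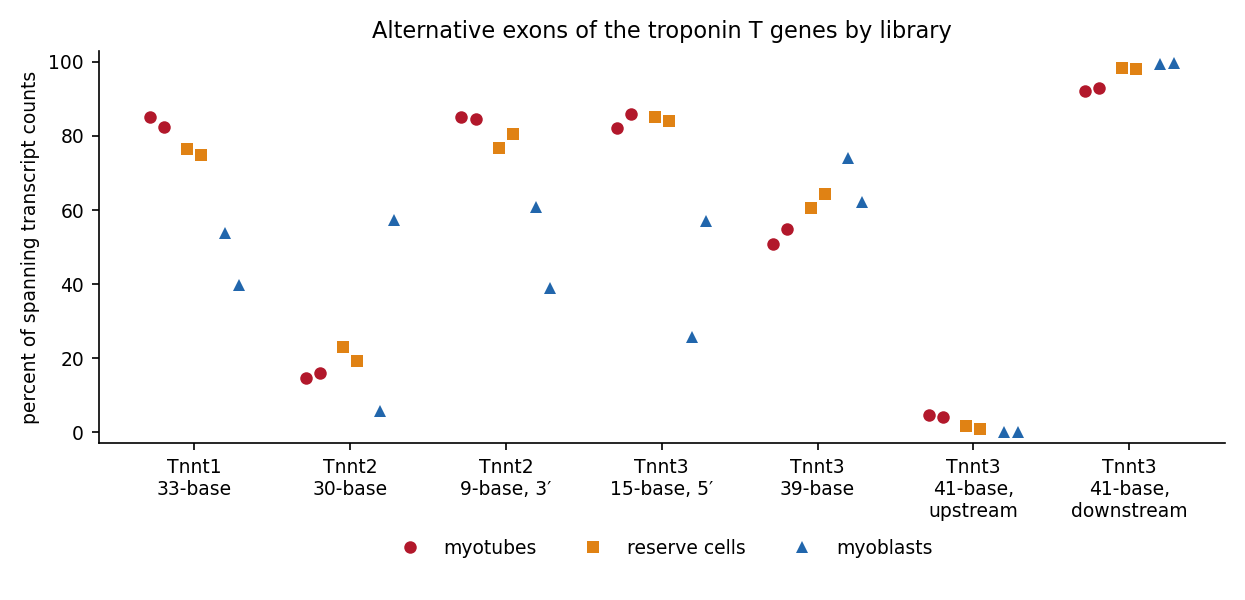
Share of the estimated counts of all transcripts spanning an exon that hold it, in percent, for 7 alternative exons of Tnnt1, Tnnt2 and Tnnt3, with 1 point a library for myotubes (circles), reserve cells (squares) and myoblasts (triangles). The downstream 41-base exon of Tnnt3 is at 92.1% or more in every library, and the 30-base exon of Tnnt2 spans 5.84% to 57.2% in the 2 myoblast libraries. Only an exon with the same boundaries counts as held.

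Other genes of the same filament and of the same fibre types were read from lists. The counts of this and each later list stand beside the shares of all genes tested. In myotubes against myoblasts 32.7% of all genes were higher and 32.9% lower. In reserve cells against myoblasts 24.7% and 22.4% were, and in myotubes against reserve cells 27.6% and 28.9%. Of 10 thin filament partners, 9 were higher and none lower in myotubes than in myoblasts, with a median log2 fold change of 4.18. Acta1, skeletal actin, rose by 7.28 (edgeR adjusted p = 1.2e-18), Actc1, cardiac actin, by 6.21 and Tpm2, a tropomyosin, by 4.26. The exception was Neb, the nebulin ruler of the thin filament, at 227 and 185 CPM in myotubes and 0.817 and 22.3 CPM in myoblasts (edgeR adjusted p = 0.073). In reserve cells 7 of the 10 were higher than in myoblasts and 1, the tropomyosin Tpm3, was lower, at 287 and 278 CPM against 424 and 410 CPM. In myotubes 9 of the 10 were higher than in reserve cells, with a median of 1.77.

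All 10 tested slow fibre genes (of 11) and all 11 fast fibre genes were higher in myotubes than in myoblasts, in reserve cells than in myoblasts, and in myotubes than in reserve cells. The median log2 fold changes of the slow list were 7.94, 5.66 and 1.91 in these comparisons, and with genes at 0 counts set to their bound the first of them was 7.45 and the next 5.61. Those of the fast list were 7.78, 5.29 and 2.41. Myh7, the slow myosin heavy chain, had 630.0 and 622 CPM in myotubes, 194 and 203 in reserve cells and 4.61 and 4.66 in myoblasts. Mylpf, a fast regulatory light chain, had 6401 and 6015 CPM in myotubes, 1379 and 1318 in reserve cells and 33.5 and 35.2 in myoblasts. The slow and fast troponin genes thus lay within the range of other genes of the contractile apparatus. All 7 developmental muscle genes, among them Chrng, the fetal subunit of the acetylcholine receptor, were also called higher in each of the 3 comparisons (medians 6.21, 4.77 and 1.63).

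Of the 11 cardiac genes only 3 passed the filter. Myh6, a cardiac myosin heavy chain, was higher in all 3 comparisons, with 81.1 and 80.3 CPM in myotubes, 24.9 and 26.3 in reserve cells and 0.642 and 0.231 in myoblasts. Gata4, a cardiac transcription factor, had 16.0 and 14.3 CPM in myotubes, 7.36 and 7.30 in reserve cells and 30.6 and 29.3 in myoblasts, and was lower than in myoblasts in both other groups and higher in myotubes than in reserve cells. Nppb, a natriuretic peptide gene, was lower in myotubes and in reserve cells than in myoblasts. The list thus had 1 gene higher and 2 lower in myotubes and in reserve cells against myoblasts, and 2 higher and 0 lower in myotubes against reserve cells (median log2 fold change 1.52). The cardiac transcription factors Tbx5 and Hand2 and the atrial light chain Myl7 were at 0 in all 6 libraries, and Mybpc3, cardiac myosin binding protein C, was at 0.427 and 0.872 CPM in myotubes and 0 elsewhere.

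Of 18 tested regulators of muscle genes, 9 were higher and 7 lower in myotubes than in myoblasts (32.7% and 32.9% of all genes tested). The list thus went both ways, as did all genes. Mef2c, a MEF2 factor, had 1173 and 1210.3 CPM in myotubes, 237 and 248 in reserve cells and 1.05 and 0.968 in myoblasts. Tead4, a TEAD factor, had 184 and 206 CPM in myotubes, 72.0 and 79.4 in reserve cells and 21.4 and 17.3 in myoblasts. Myog, a myogenic helix-loop-helix factor, had 1162 and 1144 CPM in myotubes, 521 and 514 in reserve cells and 106 and 101 in myoblasts. All of these had the same order of groups as the troponin genes other than Tnni3, as did Mef2a and Mef2d. Myf6 was highest in myotubes, at 8.89 and 8.96 CPM. It had 1.01 and 1.09 CPM in reserve cells and 0.992 and 0.553 in myoblasts, which were not called apart (edgeR adjusted p = 0.38). Other factors of the same families had another order or overlapped. Myf5 ran the other way, with 8.25 and 7.15 CPM in myotubes, 20.3 and 21.0 in reserve cells and 53.6 and 60.2 in myoblasts. Myod1 was lowest in reserve cells, with 233 and 236, 169 and 190, and 213 and 201 CPM in the same order. Tead1 overlapped between groups, with 190 and 86.7, 130 and 55.7, and 63.0 and 123 CPM. In reserve cells 7 of the 18 were higher and 7 lower than in myoblasts, a count of lower genes that became 3 without myoblast replicate 1, and in myotubes 8 were higher and 6 lower than in reserve cells.

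Among 12 regulators of splicing, several of which are known to act on troponin T exons, 7 were higher and 4 lower in myotubes than in myoblasts. Of all genes tested, 32.7% were higher and 32.9% lower. Rbm24 had 311 and 329 CPM in myotubes, 147 and 150 in reserve cells and 23.3 and 23.4 in myoblasts. Ptbp1, a repressor of muscle exons, had 102 and 91.6 CPM in myotubes, 274 and 269 in reserve cells and 465 and 446 in myoblasts. Mbnl1 had 181 and 187 CPM in myotubes, 453 and 486 in reserve cells and 261 and 272 in myoblasts, and was thus highest in reserve cells. In reserve cells 8 of the 12 were higher and 3 lower than in myoblasts (1 lower without myoblast replicate 1, reserve cell replicate 1 or reserve cell replicate 2), and in myotubes 5 were higher and 4 lower than in reserve cells (7 lower when scaled by library totals). Whether these levels bear on the exon shares was not tested.

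The 8 proliferation genes fell in myotubes and in reserve cells. Mki67 had 36.2 and 44.4 CPM in myotubes, 213 and 220 in reserve cells and 578 and 580 in myoblasts. All 8 were also lower in myotubes than in reserve cells. Of 10 genes linked to reserve cells or quiescence, 1 was higher and 7 lower in myotubes than in myoblasts, 4 were higher and 3 lower in reserve cells than in myoblasts, and 0 were higher and 7 lower in myotubes than in reserve cells. Pax7, the satellite cell factor, had 8.75 and 11.2 CPM in myotubes, 61.3 and 65.5 in reserve cells and 72.9 and 68.3 in myoblasts.

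The genes with profiles most like each member were found among 9996 or 9997 candidates, by Euclidean distance between profiles of log2 CPM over the 6 libraries, each centred on its own mean. Tnnt3 and Tnnc2 were among each other's 3 nearest genes (distance 0.32), together with Myot in both cases. Tnni1 and Tnni2 shared Mylpf among their nearest (distances 0.22 and 0.24), and Tnni2 was itself the third nearest to Tnni1 (0.31). The other genes near Tnni1 and Tnni2 were Pkhd1 for the slow gene, and Asb14 and Ckm for the fast gene. Tnnt1 lay nearest to Lmod3 (0.28), Myom2 (0.31) and Afap1l1 (0.38), and Tnnt2 to Ryr1 (0.24), Chrng (0.29) and Rap1gap2 (0.30). Tnnc1 lay nearest to Mybph (0.25), Casq2 (0.30) and Frem2 (0.37), Tnnt3 also to Mypn (0.33) and Tnnc2 also to Mybpc1 (0.41). Tnni3 stood apart from the family, with Spire2 (0.39), Pick1 (0.48) and Ksr1 (0.53) as its nearest genes, at mean levels of 31.1, 56.5 and 42.5 CPM in myotubes. Myot, Asb14 and Frem2 were at 0 in both myoblast libraries, so their distances depend on the prior count of 2 added before the log and carry little weight. The distances of Pkhd1, Mypn and Mybpc1 depend on it in part, with myoblast means of 0.151, 0.458 and 0.482 CPM. The distances describe 6 libraries in 3 groups, and many genes of like profile lie close together.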

How the data were processed

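RNA-seq of 6 C2C12 libraries was used. Per the labels, read pairs of 150 bases were mapped to mm10 with HISAT2, handled with SAMtools and assembled with StringTie, and the authors deposited estimated counts per transcript. They used DESeq2. No version and no annotation release was found in the labels or methods. A table of normalized transcript counts, with 6 columns for the whole series, was not used.

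Of 142604 transcripts, 141374 were paired with genes through GENCODE M21 (GRCm38) by identifier and summed by gene identifier. The other 1230 (0.375% to 0.872% of counts) were kept under their own identifiers. The deposited estimated counts are whole numbers. Genes and transcripts passing filterByExpr (minimum count 10) were tested with edgeR 4.0.16 in R 4.3.3 (TMM, robust glmQLFit, glmQLFTest, 1 fit of all 6 libraries, 15467 genes, Benjamini-Hochberg, threshold 0.05), and usage with diffSpliceDGE. CPM used TMM-scaled totals. The common biological coefficient of variation was 12.9% for genes and 70.0% for transcripts. Gene fits were checked on simulated counts. Counts per kb summed each transcript's count over its length.

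Members, lists and tests were chosen with earlier results of these data known. All 8 members and the 3 nearest genes of each were named. Further names were drawn from transcripts with at least 10% of a gene's counts in a group mean and list genes among the 4 smallest adjusted p. Not all of these are shown, and other genes named were chosen after their values were seen. Alternatives were DESeq2 1.42.0, RLE factors, library totals, 2 other filters, a replicate block, separate fits, protein-coding transcripts only and leaving out each library. Differences between the replicates of a group correlated little between groups (-0.0321 to 0.0404). With 1 such difference a group, this cannot exclude that replicate numbers pair the samples. No block entered the reported fits.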

Additional observations from a re-analysis of the deposited data

How the results depend on the processing

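All 23 member results called at the gene level kept their direction and stayed past the threshold in each of their alternatives (320 in all, over 14 settings), with a highest adjusted p of 0.0069 by edgeR for Tnnc1 in myotubes against reserve cells without reserve cell replicate 2. Tnni3 in reserve cells against myoblasts was called in none of its 13 (log2 fold change 0.031 to 0.30, adjusted p 0.62 to 0.97). A filter of 10 CPM in 2 libraries removed Tnni3, which left 7 genes called in each comparison. Scaling by library totals moved the median of all genes to -0.27 in myotubes against myoblasts, -0.057 in reserve cells against myoblasts and -0.21 in myotubes against reserve cells, and gave 3737 genes higher and 6504 lower in the first (5056 and 5081 as reported) and 2998 higher and 5740.0 lower in the last (4272 and 4467). Transcript results were less settled. The 52 transcripts called between myotubes and myoblasts became 56 with DESeq2, 43 with the replicate block and 37 with the filter of 10 CPM. The 20 transcripts higher in myotubes than in reserve cells became 43 with DESeq2, 12 with the replicate block and 7 to 24 without 1 library, and the 33 higher in reserve cells than in myoblasts became 20 with the replicate block, 16 with separate fits and 13 to 25 without 1 library. Genes with a called usage numbered 3 to 5 in myotubes against myoblasts, 1 to 5 in reserve cells against myoblasts and 1 to 3 in myotubes against reserve cells without 1 library, and in the last comparison the filter of 10 CPM and the replicate block each left 1. With the replicate block 8, 7 and 8 member genes were called, as without it. The block also ended the usage calls of Tnnt1 in myotubes against myoblasts (edgeR adjusted p = 0.065) and of Tnnt3 in myotubes against reserve cells (0.17). The cause of these changes was not tested. A library left alone in its group was assumed to vary like the others. The fast share, 8.51 points higher in myotubes than in reserve cells, was 8.12 without division by length. Of the shares of single paralogs, 26 of 192 values moved by more than the replicate SD, all under another length setting. Leaving out 1 of the 2 libraries of a group cannot move its mean by that much. These counts therefore say nothing on how the shares depend on single libraries. Tnni3 and the myoblast transcripts rest on few counts, which limits them.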
